A study of Homo sapiens with 8 samples.

Results

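Homologous recombination and Fanconi repair genes were followed in cells given EMD37. The 38 genes were taken by symbol from the 36715 genes of the deposited count table and fall into 9 roles, from BRCA1 and BRCA2 with their partners to polymerase theta. All 38 were found. The study profiled MDA-MB-231, a human triple-negative breast cancer cell line, by RNA-seq in 4 groups of 2 libraries, named A and B. The groups were EMD37 at 0.5 µM for 12 h, DMSO vehicle for 12 h, EMD37 at 0.5 µM for 24 h and DMSO vehicle for 24 h. Every group came from the same line, so all groups share its genotype, and a single line was used. EMD37 is the compound under test, and the series description poses its question as what the compound does to the transcriptome.

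Homologous recombination repairs a broken chromosome by copying the sister chromatid: nucleases cut back the broken ends, BRCA1, PALB2 and BRCA2 prepare the exposed strand to invade its matching sequence, and helicases and nucleases later separate the joined molecules. The Fanconi anaemia pathway acts where a crosslink ties the strands together. Its core complex attaches ubiquitin to the FANCD2-FANCI clamp, and repair then ends with recombination. Many of these genes are most active in S and G2 phase, and inherited loss of several predisposes to breast cancer.

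Between 8994977 and 11437813 reads were counted per library, and 14850 genes had enough of them to test. Levels are counts per mega of library reads (CPM), with library totals scaled by the TMM method. Genes were called at an adjusted p below 0.05, from the quasi-likelihood test of edgeR and the Benjamini-Hochberg method over all 14850 genes. Log2 changes carry the standard error (SE) of that fit. Correlations between the libraries of a group ran from 0.988 to 0.992. Markers listed for the line were abundant: VIM, CD44, AXL, CAV1, MSN, EGFR, ZEB1 and KRT18 summed to 6548 to 8154 CPM per library. Another 7 luminal and epithelial markers, listed as low in this line, summed to 12.4 to 17.6 CPM. KRT18, an epithelial keratin on the first list, had 258 to 336 CPM per library. Leukocyte markers summed to at most 1.94 CPM and endothelial and fibroblast markers to at most 3.32 CPM. As a check of the treatment, HSPA5, the endoplasmic reticulum chaperone BiP, had a log2 change of 3.42 ± 0.09 (SE) at 12 h and 2.81 ± 0.09 at 24 h.

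After 24 h of EMD37 most genes of the group fell and none rose. Of the 38 genes 36 could be tested, and 24 of them (66.7%) were lower at 24 h, where 21.1% of all tested genes were lower. None was higher, where 19.6% of all tested genes were. The median log2 change over the 36 genes was -0.68, against -0.03 over all tested genes. Falls of at least 2-fold were called for 10 of the 36, and for 4.43% of all tested genes. In 29 of the 36 both EMD37 libraries lay below both vehicle libraries, which was so for 35.4% of all tested genes. In 2 (PALB2 and RAD50) both lay above, which was so for 4666 of the 14850 tested genes. The 24 genes that fell stood at a median of 53.8% of their vehicle level.

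Summed over the 38 genes, the EMD37 libraries at 24 h held 800.1 and 810.7 CPM, against 1175.8 and 1191.6 CPM in the vehicle libraries at 24 h. At 12 h the EMD37 libraries held 1071.5 and 1053.2 CPM, against 1173.4 and 1150.3 CPM in vehicle. The sums did not overlap at either time. In RNA from whole cultures, fewer cells in the phases that use these genes and less RNA per cell cannot be told apart.

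The members not tested were FANCE and FANCF, subunits of the Fanconi core complex. FANCE had 0 to 6 reads per library and FANCF had 0 reads in all 8, so their change was not detectable at this depth; a count of 0 allows a level of up to 3 reads, or 0.257 to 0.323 CPM. Among the 36 tested genes 15 averaged under 10 CPM, and 9 of those 15 fell at 24 h.

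**Figure D1:**
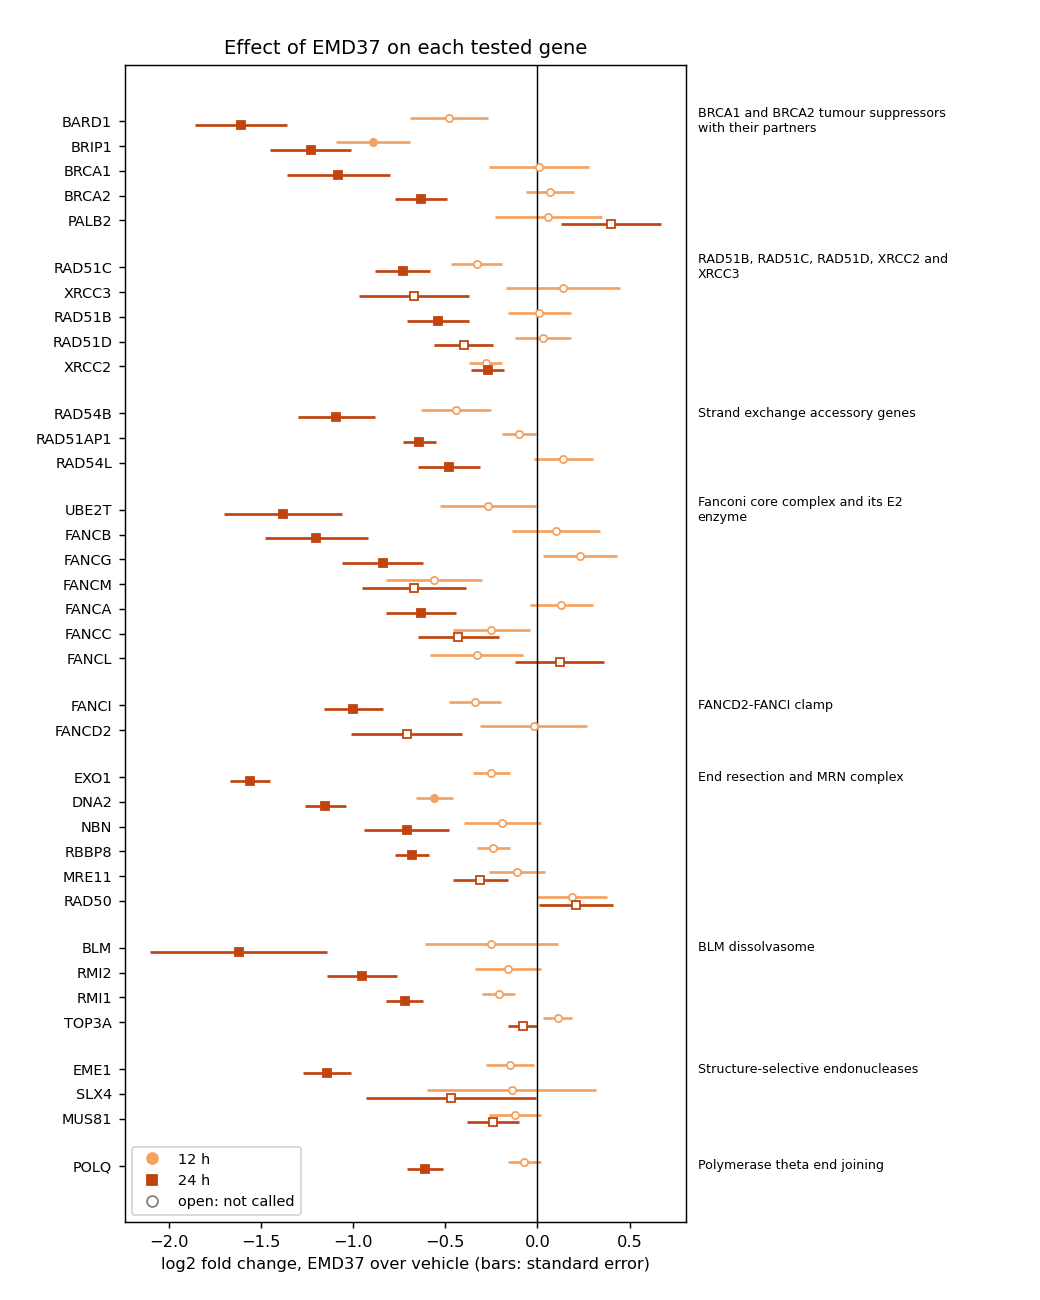
Log2 fold change of EMD37 over vehicle at 12 h (circles) and 24 h (squares) for the 36 tested genes, grouped by role; bars are standard errors of the edgeR fit, and open symbols were not called. At 24 h the points run from -1.62 for BLM to 0.40 for PALB2, and 33 of 36 lie below 0.

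Since so many members fell together, their RefSeq promoter windows on GRCh38.p14, from 250 bases before to 50 after each start, were searched for words linked to cell cycle transcription. The E2F-type words were TTCCCGC and TTGGCGC, the CHR word was TTTGAA and the third was CCAAT, each read on both strands. Windows were given for 33 members, 42 windows in all. An E2F-type word was present in 22 of the 42 (52.4%), against 9.23% of all 35116 windows of that length. The CHR word was in 9.52% against 15.2% of all windows, and CCAAT in 35.7% against 34.6%. In no member window did an E2F-type word overlap a CCAAT. Median GC content was 64.2% in member windows and 58.7% in all windows. The E2F-type word stood in 13 of 26 windows of members lower at 24 h and in 9 of 16 windows of the other members. Some members have more than 1 window, and 1 word can be counted in each of them. Counted by gene, 12 of 19 members lower at 24 h held such a word, as did 7 of 14 others. The others include FANCE and FANCF, which were not tested for a change. A few contrasting windows follow, each 5′ to 3′ on the strand of its gene with E2F-type words in capitals. BLM, BRIP1 and EME1 fell and hold at least 1 of the searched words, and TOP3A holds 1 and was not called. EXO1 fell with none of the searched words in the window shown. Only these exact words were searched, so variants of them are not marked.
BLM promoter, chr15:90717096-90717395, plus strand: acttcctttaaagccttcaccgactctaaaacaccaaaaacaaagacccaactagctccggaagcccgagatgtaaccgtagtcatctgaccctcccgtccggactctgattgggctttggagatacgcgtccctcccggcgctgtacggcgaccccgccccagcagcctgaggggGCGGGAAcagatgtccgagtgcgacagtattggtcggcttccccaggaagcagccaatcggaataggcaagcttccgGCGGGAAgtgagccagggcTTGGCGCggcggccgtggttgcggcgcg
BRIP1 promoter, chr17:61863479-61863778, minus strand: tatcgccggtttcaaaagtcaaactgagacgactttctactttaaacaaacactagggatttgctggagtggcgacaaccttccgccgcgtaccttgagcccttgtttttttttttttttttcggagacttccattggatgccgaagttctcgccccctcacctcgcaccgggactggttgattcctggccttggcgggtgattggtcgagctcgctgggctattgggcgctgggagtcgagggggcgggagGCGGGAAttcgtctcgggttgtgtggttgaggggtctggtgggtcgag
EME1 promoter, chr17:50372979-50373278, plus strand: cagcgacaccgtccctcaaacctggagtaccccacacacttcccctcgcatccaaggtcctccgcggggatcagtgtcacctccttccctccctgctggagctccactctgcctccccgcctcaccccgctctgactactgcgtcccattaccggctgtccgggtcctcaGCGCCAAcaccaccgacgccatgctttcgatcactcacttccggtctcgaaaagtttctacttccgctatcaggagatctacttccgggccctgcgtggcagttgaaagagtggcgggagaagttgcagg
TOP3A promoter, chr17:18314945-18315244, minus strand: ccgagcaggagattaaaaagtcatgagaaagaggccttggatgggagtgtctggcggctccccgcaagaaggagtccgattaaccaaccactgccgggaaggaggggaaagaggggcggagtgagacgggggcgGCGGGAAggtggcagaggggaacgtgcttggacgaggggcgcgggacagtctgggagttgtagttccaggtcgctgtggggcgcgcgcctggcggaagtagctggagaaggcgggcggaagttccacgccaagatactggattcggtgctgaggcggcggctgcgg
EXO1 promoter, chr1:241847954-241848253, plus strand: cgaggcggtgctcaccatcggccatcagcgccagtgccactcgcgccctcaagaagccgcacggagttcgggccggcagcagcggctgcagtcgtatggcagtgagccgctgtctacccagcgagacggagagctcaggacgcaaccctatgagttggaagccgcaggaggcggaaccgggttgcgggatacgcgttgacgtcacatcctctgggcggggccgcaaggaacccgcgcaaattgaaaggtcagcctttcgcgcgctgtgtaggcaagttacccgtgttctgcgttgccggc

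A match in these windows describes the letters only. The BLM words begin 74 bases before the start and at bases 4 and 23 after it. The BRIP1 word begins at base 3 after the start. In EME1 and TOP3A it begins 80 and 116 bases before the start.

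BRCA1, BRCA2 and their partners form the first group, and 4 of the 5 fell at 24 h. BARD1, which pairs with BRCA1 in a ubiquitin ligase (ENSG00000138376, chr2:214725646-214809711 on hg38), had 2.43 and 2.41 CPM in EMD37 libraries at 24 h, against 7.96 and 6.79 CPM in vehicle libraries at 24 h. The EMD37 values nearly coincided and lay far below vehicle, at 32.8% of its mean. The log2 change was -1.61 ± 0.25 (SE), with an adjusted p of 5.9e-05 by edgeR's quasi-likelihood test. BRIP1, a helicase that binds BRCA1 and is also the Fanconi gene FANCJ (ENSG00000136492, chr17:61681266-61863521), had 4.96 and 4.34 CPM with EMD37, against 12.1 and 9.59 CPM in vehicle at 24 h. Both treated libraries were again below both controls, with a log2 change of -1.23 ± 0.22 and an adjusted p of 0.00024. BRCA1 itself had 2.96 and 2.61 CPM in EMD37 libraries and 7.13 and 4.52 CPM in vehicle libraries at 24 h, a log2 change of -1.08 ± 0.28 (adjusted p 0.00542). Its vehicle libraries lay far apart, and its call ended without vehicle 24 h library A (adjusted p 0.119) or EMD37 24 h library B (0.0517). BRCA2, which works on the exposed single strand, had 14.7 and 13.8 CPM with EMD37, against 22.0 and 22.0 CPM in vehicle, and fell by 0.63 on the log2 scale (adjusted p 0.00178). PALB2, the bridge between BRCA1 and BRCA2, was the member with the highest estimate: 4.33 and 4.25 CPM in EMD37 libraries and 3.05 and 3.45 CPM in vehicle libraries. Its log2 change of 0.40 ± 0.27 was not called (adjusted p 0.257 by edgeR's quasi-likelihood test), although the libraries did not overlap.

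RAD51B, RAD51C, RAD51D, XRCC2 and XRCC3 are related genes whose proteins build small complexes that aid strand invasion, and 3 of the 5 fell at 24 h. RAD51C, present in each of those complexes, fell by 0.73 on the log2 scale (SE 0.15), with 12.25 and 11.1 CPM in EMD37 libraries and 19.8 and 19.0 CPM in vehicle libraries at 24 h. RAD51B fell by 0.54 (SE 0.17). XRCC2 fell by 0.27 (SE 0.09), the smallest called change among the 38 genes. By edgeR's quasi-likelihood test the adjusted p was 0.000904 for RAD51C, 0.0184 for RAD51B and 0.0201 for XRCC2. The RAD51B call ended without EMD37 24 h library B (0.208), and that of XRCC2 without vehicle 24 h library B (0.0925) or EMD37 24 h library A (0.184). RAD51D had a log2 change of -0.40 ± 0.16 and was not called (adjusted p 0.053 by the same test). XRCC3 was not called either (log2 change -0.67 ± 0.30): its EMD37 libraries at 24 h held 18.7 and 12.0 CPM, against 14.5 and 34.7 CPM in vehicle libraries that differed widely. XRCC3 shares 76.7% of its exonic bases with KLC1 on the annotation. Its log2 change was -1.15 without vehicle 24 h library A and -1.0 without EMD37 24 h library A. Each of these fits leaves 1 library in a 24 h group, so only effect sizes are given.

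All 3 accessory genes of strand exchange fell. RAD51AP1, which helps joint molecules form (ENSG00000111247, chr12:4538798-4560048), had 73.6 and 85.2 CPM in EMD37 libraries at 24 h, against 133 and 114 CPM in vehicle. The EMD37 libraries stood at 64.2% of the vehicle mean, with no overlap (log2 change -0.64 ± 0.09, adjusted p 4.24e-05 by edgeR's quasi-likelihood test). RAD54B and RAD54L encode related motor proteins that move along DNA during strand exchange. RAD54B fell by 1.09 on the log2 scale (SE 0.21), with 5.91 and 5.99 CPM in EMD37 libraries and 11.1 and 14.4 CPM in vehicle libraries. RAD54L fell by 0.48 (SE 0.17). Its adjusted p of 0.0333 passed the threshold narrowly and missed it without EMD37 12 h library B (0.0523), vehicle 24 h library B (0.146), EMD37 24 h library A (0.112) or EMD37 24 h library B (0.128). Shared exonic bases made up 59.1% of RAD54B, with FSBP, and 25.1% of RAD54L, with LRRC41, and reads from such bases cannot be assigned without strand.

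In the Fanconi core complex and its E2 enzyme 4 of 7 tested genes fell. UBE2T, the E2 enzyme that supplies ubiquitin for the FANCD2-FANCI clamp (ENSG00000077152, chr1:202331657-202341980), had 1.48 and 1.45 CPM with EMD37 at 24 h, against 4.16 and 3.45 CPM in vehicle. That was 38.5% of the vehicle level (log2 change -1.38 ± 0.32, adjusted p 0.00177), from as few as 14 reads per library. FANCB, a subunit of the catalytic module (ENSG00000181544, chrX:14835961-14873069), had 2.32 and 2.12 CPM with EMD37 and 5.83 and 4.31 CPM in vehicle, a log2 change of -1.20 ± 0.28 (adjusted p 0.00246 by edgeR's quasi-likelihood test). FANCG and FANCA, which bind each other in the core complex, fell by 0.84 (SE 0.22) and by 0.63 (SE 0.19) on the log2 scale. The FANCG call ended without EMD37 24 h library B (adjusted p 0.0695) and the FANCA call without EMD37 24 h library A (0.107); FANCA shares 23.6% of its exonic bases with ZNF276. FANCM, the translocase that anchors the core complex on DNA, was not called, with a log2 change of -0.67 ± 0.28 (adjusted p 0.059 by the same test). Without vehicle 24 h library B, which leaves 1 vehicle library at 24 h, its log2 change was -0.82. FANCC had -0.43 ± 0.22 and FANCL, the ubiquitin ligase itself, 0.12 ± 0.24. Neither was called, and FANCL shares 19.7% of its exonic bases with VRK2 and AC007250.1.

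The clamp that receives the ubiquitin has a pair of subunits. FANCI had 10.7 and 12.3 CPM in EMD37 libraries at 24 h, against 22.6 and 23.3 CPM in vehicle, and fell by 1.00 on the log2 scale (SE 0.16, adjusted p 9.07e-05 by edgeR's quasi-likelihood test). FANCD2 had 2.11 and 2.32 CPM with EMD37 and 3.24 and 4.09 CPM in vehicle. The FANCD2 libraries did not overlap, but from 20 to 40 reads per library its log2 change of -0.71 ± 0.30 was not called (adjusted p 0.0671).

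End resection exposes the single strand that invades the sister chromatid, and 4 of its 6 genes fell. EXO1, a long-range resection nuclease (ENSG00000174371, chr1:241847967-241895148), had 27.2 and 27.1 CPM in EMD37 libraries at 24 h, against 84.0 and 75.9 CPM in vehicle. The treated libraries were almost equal and 2.94-fold below vehicle, and the log2 change of -1.56 ± 0.11 had the smallest adjusted p of the members, 1.17e-08 by edgeR's quasi-likelihood test. DNA2, the nuclease and helicase of the parallel long-range route (ENSG00000138346, chr10:68414064-68472121), had 27.2 and 30.0 CPM with EMD37 and 65.1 and 62.0 CPM in vehicle. Its log2 change was -1.15 ± 0.11 (adjusted p 3.17e-07), with no overlap. RBBP8, which encodes CtIP, the factor that starts resection, had 52.8 and 62.1 CPM with EMD37 and 94.9 and 89.6 CPM in vehicle and fell by 0.68 on the log2 scale (SE 0.09). Of the MRN complex, which binds the broken end, NBN, its adaptor, fell by 0.71 (SE 0.23, adjusted p 0.0208), a call that ended without EMD37 24 h library B (0.195). MRE11, the nuclease, had -0.31 ± 0.15, and RAD50, the ATPase that holds ends together, had 0.21 ± 0.20; neither was called. RAD50 shares 79.7% of its exonic bases with AC116366.3 and TH2LCRR.

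The BLM dissolvasome separates joined chromatids without crossing over, and 3 of its 4 genes fell. BLM, its helicase (ENSG00000197299, chr15:90717327-90816165), had 0.950 and 0.579 CPM in EMD37 libraries at 24 h, against 1.67 and 3.12 CPM in vehicle. This was the member with the lowest estimate, 32.5% of vehicle, but from 6 to 32 reads per library: the log2 change of -1.62 carried an SE of 0.48 (adjusted p 0.00866 by edgeR's quasi-likelihood test). The BLM call ended without vehicle 24 h library B (adjusted p 0.114) or EMD37 24 h library B (0.0917). RMI1, a scaffold subunit (ENSG00000178966, chr9:83980711-84004074), had 42.7 and 42.8 CPM with EMD37 and 71.0 and 69.7 CPM in vehicle, and fell by 0.72 on the log2 scale (SE 0.10). RMI2, which binds RMI1, fell by 0.95 (SE 0.19). TOP3A, the topoisomerase (ENSG00000177302, chr17:18271428-18315007), had 203 and 204.5 CPM with EMD37 and 201 and 230 CPM in vehicle. Its libraries overlapped, and its log2 change of -0.08 ± 0.08 was not called (adjusted p 0.47).

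Among the endonucleases that cut branched DNA, EME1 fell and MUS81 and SLX4 were not called. EME1, the partner of MUS81 (ENSG00000154920, chr17:50373220-50381483), had 17.3 and 16.4 CPM in EMD37 libraries at 24 h, against 40.1 and 34.4 CPM in vehicle, a log2 change of -1.14 ± 0.13 (adjusted p 3.58e-06 by edgeR's quasi-likelihood test). MUS81, the nuclease, had 39.7 and 41.9 CPM with EMD37 and 40.5 and 56.1 CPM in vehicle. Its estimate was -0.24 ± 0.14 (adjusted p 0.182 by the same test). Without vehicle 24 h library A, which leaves 1 vehicle library at 24 h, the MUS81 estimate was -0.43. SLX4, the scaffold that gathers these nucleases, had -0.47 ± 0.46 from 9 to 22 reads per library. EME1 shares 16.4% of its exonic bases with LRRC59, and MUS81 shares 14.1% with CFL1 and EFEMP2. POLQ, the polymerase of microhomology end joining, a route that competes with recombination, had 39.7 and 41.8 CPM with EMD37 and 66.6 and 58.0 CPM in vehicle. POLQ fell by 0.61 on the log2 scale (SE 0.10, adjusted p 0.000118).

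**Figure D2:**
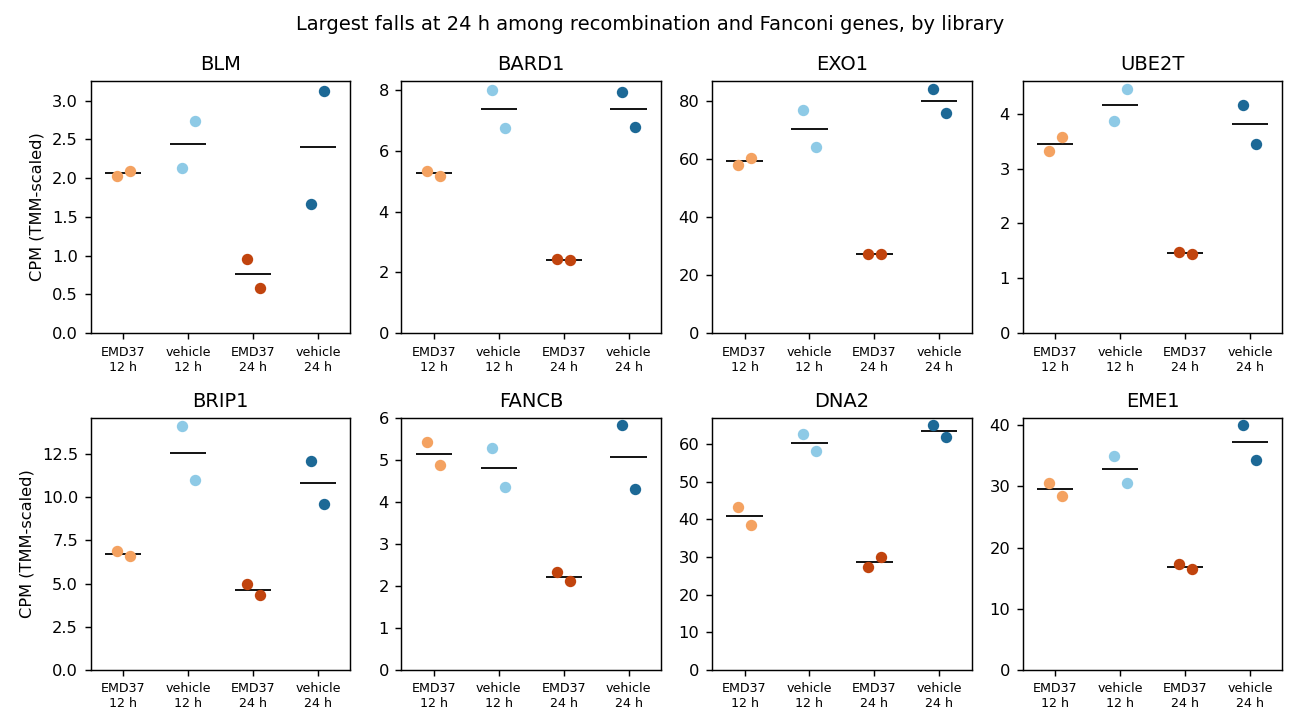
TMM-scaled CPM in each library for the 8 genes with the largest called falls at 24 h, in EMD37 and vehicle groups at 12 h and 24 h; points are libraries and lines are means of 2. In every panel both EMD37 libraries at 24 h lie below both vehicle libraries, for EXO1 at 27.2 and 27.1 CPM against 84.0 and 75.9 CPM.

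Of the 24 calls, 16 held under every alternative setting: BARD1, BRCA2, BRIP1, RAD51C, RAD51AP1, RAD54B, FANCB, UBE2T, FANCI, EXO1, DNA2, RBBP8, RMI1, RMI2, EME1 and POLQ. The labels do not say whether libraries A and B were separate cultures, so the spread behind each p-value may be technical. Of the 18 tested members that share no exonic bases with another gene, 16 fell, where 21.1% of all tested genes were lower. The share among all tested genes without shared exonic bases was not computed.

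Per kilobase of exon, the 38 genes covered a wide range in vehicle cells. RAD51AP1 had the highest level, 50.9 ± 4.27 CPM per kb (SD, n = 4 vehicle libraries), followed by TOP3A at 32.9 ± 2.31. Next came RMI1 at 20.8 ± 1.25 and XRCC2 at 20.5 ± 1.81, then RBBP8 at 18.5 ± 0.686 and EXO1 at 18.2 ± 2.01; neither the first nor the second of these neighbouring pairs differed by more than its spread. At the low end of the tested genes stood BRCA1 at 0.548 ± 0.153, FANCD2 at 0.403 ± 0.0666, BLM at 0.362 ± 0.0966 and SLX4 at 0.208 ± 0.0497 CPM per kb, with the untested FANCE at 0.0954 ± 0.0985 and FANCF at 0 below them. XRCC2, one of the most abundant per kb (ENSG00000196584, chr7:152644779-152676165), had 85.1 and 90.4 CPM in EMD37 libraries at 24 h, against 102 and 109.5 CPM in vehicle, so its called change was 83.0% of vehicle. Across the 36 tested genes the vehicle level per kb and the 24 h log2 change had a Spearman rho of 0.03, a description over genes measured in the same libraries.

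At 12 h few of these genes were called. BRIP1 and DNA2 were lower, 2 of 36 (5.56%), a share near the background of 3.43% over all tested genes, and none was higher, where 5.27% of all tested genes were. The median log2 change was -0.15, against -0.01 over all tested genes, and 24 of 36 estimates were negative. BRIP1 had 6.91 and 6.57 CPM in EMD37 libraries at 12 h, against 14.1 and 11.03 CPM in vehicle at 12 h (log2 change -0.89 ± 0.20, adjusted p 0.00852 by edgeR's quasi-likelihood test). DNA2 had 43.2 and 38.4 CPM with EMD37 and 62.8 and 58.1 CPM in vehicle (log2 change -0.56 ± 0.10, adjusted p 0.00183). Neither gene's groups overlapped. Both libraries of EMD37 lay below both of vehicle for 16 of the 36 genes, where 28.4% of all tested genes did so. They lay above for 4 of the 36, and for 3930 of the 14850 tested genes. At an unadjusted p below 0.05, 11 of the 36 were lower and 0 higher, where 10.8% of all tested genes were lower and 11.4% higher.

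The other genes with large falls at 24 h were not called at 12 h. EXO1 had 58.1 and 60.2 CPM in EMD37 libraries at 12 h, against 76.9 and 64.0 CPM in vehicle, a log2 change of -0.25 ± 0.10. BARD1 had -0.48 ± 0.21, UBE2T -0.27 ± 0.26, BLM -0.25 ± 0.36, EME1 -0.15 ± 0.13, BRCA1 0.01 ± 0.27 and FANCB 0.10 ± 0.24. The 12 h calls rested on few libraries. BRIP1 lost its call without vehicle 12 h library A (adjusted p 0.14), EMD37 12 h library A (0.0766) or EMD37 12 h library B (0.104), and DNA2 lost its own without EMD37 12 h library B (0.0752). Without vehicle 24 h library A or B the count was 4, with XRCC2 and RBBP8 added, where 6.11% and 6.15% of all tested genes were lower. With only the 4 libraries of 12 h in the fit it was 6, with FANCI and EXO1 added as well, and 7.85% of all tested genes were lower.

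The difference between the times was tested directly, as the effect at 24 h minus the effect at 12 h. The change was lower at 24 h for 13 of 36 genes, where 7.94% of all tested genes were lower in this test, and higher for none. The median difference was -0.55 on the log2 scale, against -0.04 over all tested genes, and 32 of 36 were negative. EXO1 had a difference of -1.31 ± 0.15 (adjusted p 2.3e-05 by edgeR's quasi-likelihood test) and EME1 of -0.99 ± 0.18 (adjusted p 0.00146). The other 11 were BARD1, BRCA2, RAD51AP1, FANCB, FANCG, FANCI, RBBP8, DNA2, RMI1, RMI2 and POLQ. BRIP1, already lower at 12 h, had a difference of -0.34 ± 0.30 that was not called, and XRCC2 had 0.01 ± 0.12. Single libraries moved this count, and the share of all tested genes with it. It was 2 (4.47% of all tested genes) without vehicle 12 h library B, near the background, and 3 (4.52%) without EMD37 24 h library A. It was 4 (3.29%) without EMD37 12 h library B, 6 (4.59%) without EMD37 12 h library A and 6 (4.72%) without EMD37 24 h library B. DESeq2 called 6, and 5.33% of all tested genes.

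**Figure D3:**
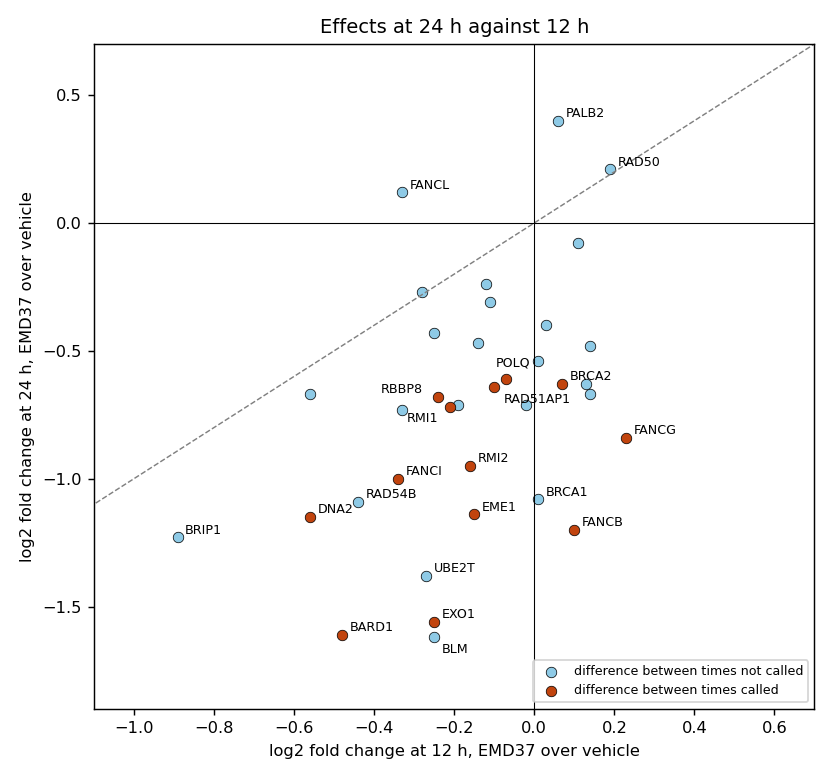
Log2 fold change of EMD37 over vehicle at 24 h (vertical axis) against 12 h (horizontal axis) for the 36 tested genes; the dashed line marks equal effects and red points are the 13 genes whose difference between times was called. Most points lie below the line, with EXO1 at -1.56 against -0.25 and BRIP1 at -1.23 against -0.89.

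Vehicle cells at 24 h and at 12 h were compared for changes without EMD37. None of the 36 was called between vehicle at 24 h and vehicle at 12 h by edgeR's quasi-likelihood test, where 5.99% of all tested genes were called in either direction. DESeq2 also called 0, and at an unadjusted p below 0.05 there were 5 of 36 genes, 1 lower and 4 higher, where 23.1% of all tested genes passed in either direction. The median log2 change was 0.01. The estimate for XRCC3 was 0.85 ± 0.30 (adjusted p 0.0992). Single libraries moved some estimates. Without vehicle 24 h library A the log2 changes were 1.35 for XRCC3, 0.41 for MUS81 and -0.37 for POLQ. Without vehicle 24 h library B that of RMI2 was 0.62. These fits leave 1 vehicle library at 24 h, so only their effect sizes are given.

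Genes of replication and cell division were also lower with EMD37 at 24 h. Of 22 such genes 21 were lower at 24 h and none was higher, where 21.1% of all tested genes were lower and 19.6% higher. Their median log2 change was -1.04. For the recombination and Fanconi genes the count was 24 of 36 and the median -0.68. CDK1, the kinase that drives mitosis, had 186.5 and 202 CPM in EMD37 libraries at 24 h, against 529 and 470 CPM in vehicle. RRM2, a ribonucleotide reductase subunit, had 173 and 174 CPM with EMD37 and 416 and 400 CPM in vehicle. E2F1, a transcription factor of S phase entry, had 58.9 and 49.4 CPM with EMD37 and 105 and 128.5 CPM in vehicle, a log2 change of -1.11 ± 0.12. Its vehicle level at 12 h was 54.6 and 69.3 CPM, so the vehicle libraries were higher at 24 h than at 12 h (log2 change 0.91 ± 0.12, adjusted p 0.0007), and the EMD37 libraries at 24 h stood near the 12 h level. Between vehicle times 7 of the 22 were called, 3 lower and 4 higher, where 5.99% of all tested genes were called in either direction. At 12 h 5 of the 22 were lower with EMD37, where 3.43% of all tested genes were. The part of the division programme in the repair gene changes was not tested.

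Other recombination and crosslink repair genes, outside the 38, were lower at 24 h in 23 of 46 tested and higher in 1, with a median of -0.37. Over all tested genes 21.1% were lower at 24 h and 19.6% higher. The glycosylase gene NEIL3, whose enzyme unhooks some crosslinks, fell by 1.32 (SE 0.12) and the ubiquitin ligase gene RFWD3 by 0.80 (SE 0.08). WDR48, a cofactor of the enzyme that removes ubiquitin from the clamp, rose: 126 and 137 CPM with EMD37, against 58.4 and 50.5 CPM in vehicle (log2 change 1.27 ± 0.09, adjusted p 1.5e-08). In non-homologous end joining, the route that rejoins ends without a template, 3 of 12 tested genes were lower (25.0%) and 1 higher (8.33%). The share lower was near that of all tested genes, and the median was -0.09. XRCC5, the Ku80 subunit that binds ends, fell by 0.42 (SE 0.09) and the polymerase gene POLM by 0.67 (SE 0.15). With a library left out this list had 2 to 4 lower and 0 to 2 higher. In nucleotide excision repair 2 of 16 were lower (12.5%) and 2 higher (12.5%), with a median of 0.10. Both shares were below those of all tested genes. GTF2H1, a subunit of the factor TFIIH, rose by 0.76 (SE 0.09), and the helicase gene ERCC2 of the same factor fell by 0.85 (SE 0.13). Of 17 genes tested then, 1 was lower and 1 higher without EMD37 24 h library B, 1 lower and 3 higher without vehicle 24 h library A, and 3 lower and 3 higher without vehicle 24 h library B. Differences between lists were not tested.

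**Figure D4:**
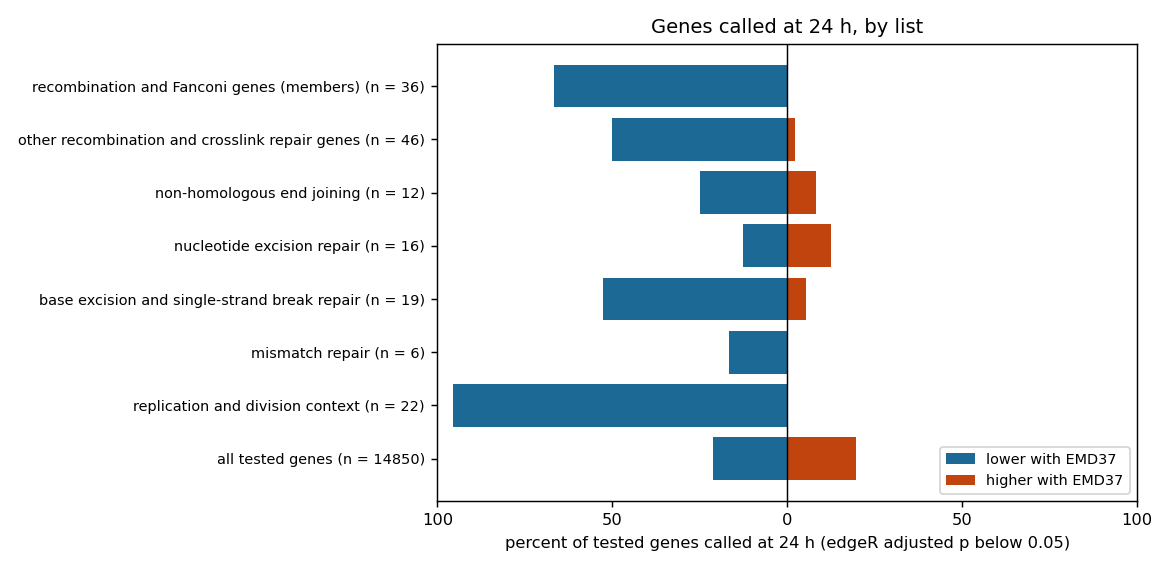
Percent of tested genes called lower (left, blue) or higher (right, red) at 24 h in each list, with all tested genes in the bottom row; n is the number of genes tested. The recombination and Fanconi genes stand at 66.7% lower and 0 higher, and all tested genes at 21.1% lower and 19.6% higher.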

How the data were processed

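Per the labels' protocols, 1 µg of total RNA went into the TruSeq V2 kit, which does not mark strand. The submitters' processing notes name FastQC, STAR, DESeq2 and build hg38. Neither versions nor the counting program are stated there.

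The authors deposited whole-number read counts per gene, which entered every test, and normalized values (signal), which are the same counts divided by 1 size factor per library. The count table as used ended inside a line at 36715 genes and held all 38 members. For 6912 IDs found in the normalized table alone, reads were recovered by multiplying by the size factor: all 55296 of 55296 values came out whole within 0.01. They entered an alternative only.

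Names, exons and coordinates came from GENCODE 29. In edgeR 4.0.16 (R 4.3.3), 14850 genes passed filterByExpr at a minimum count of 10; TMM factors ran from 0.948 to 1.03. The fit had 1 mean per group, 8 libraries, 4 residual degrees of freedom and a coefficient of biological variation of 0.0733. It was also run on simulated counts with the same spread for all genes and few changed genes. Those settings differ from these data, so that run does not measure how the fit performs here. SEs are Wald errors of that fit. Alternatives were DESeq2 1.42.0 as a test, its size factors in edgeR, no filter, a replicate block, only the 4 libraries compared, recovered reads, and each library left out; a lone library left in a group is assumed to vary like the others. Floors cover counting error only.

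The members, roles and other lists were chosen with earlier results of these data known. Values are printed for members by role, the 8 largest falls, the 4 most abundant per kb, and at most 3 genes of each other list with the smallest p at 24 h, with CHEK1, ATM, ATR and E2F1. A few genes of the other lists are not reported here and are left out of their counts. HROB and H2AX carry older symbols in GENCODE 29 and were matched through a separate table of gene names.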

Additional observations from a re-analysis of the deposited data

Results flagged for a closer look

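For 13 genes the effect of EMD37 differed between the times by the test of the difference itself (effect at 24 h minus effect at 12 h, log2 scale, quasi-likelihood test in edgeR, Benjamini-Hochberg adjusted). The difference was -1.31 for EXO1 and -0.99 for EME1, and both kept their call under every alternative run. For DNA2 it was -0.59 (adjusted p 0.013), lost without vehicle 12 h library B, EMD37 12 h library A or EMD37 24 h library A (0.0803 to 0.0848). RAD51AP1 had -0.54 (0.01), lost without vehicle 12 h library B, EMD37 12 h library B or EMD37 24 h library A (0.0581 to 0.0815). FANCG had -1.07 (0.0215), lost without vehicle 12 h library B, EMD37 12 h library B or EMD37 24 h library B (0.108 to 0.115). POLQ had -0.54 (0.0129), lost without vehicle 12 h library B, EMD37 12 h library A, EMD37 12 h library B or EMD37 24 h library A (0.0522 to 0.0836). RMI1 had -0.51 (0.0151), lost without vehicle 12 h library B, EMD37 12 h library B, or either EMD37 24 h library (0.0546 to 0.122).

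The remaining differences were lost without 5 or more of the libraries. BRCA2 had -0.70 (adjusted p 0.0195), which held without EMD37 12 h library B and without either vehicle 24 h library and was otherwise 0.0515 to 0.108. FANCI had -0.66 (0.0465), held without EMD37 12 h library A and either vehicle 24 h library, and was otherwise 0.0671 to 0.242. BARD1 had -1.12 (0.0269) and FANCB -1.30 (0.0233). Both held without vehicle 12 h library A or vehicle 24 h library B, and were otherwise 0.0602 to 0.106 for BARD1 and 0.059 to 0.0939 for FANCB. RBBP8 had -0.44 (0.0262), held without vehicle 24 h library B or EMD37 24 h library B, and was otherwise 0.0529 to 0.178. RMI2 had -0.80 (0.0492), held without vehicle 24 h library B, and was otherwise 0.0517 to 0.198. Some of these calls also ended under other settings: FANCI with DESeq2's size factors (0.051), without a filter (0.0623) and with recovered reads (0.052), RMI2 with those size factors (0.0534) and recovered reads (0.053), and RBBP8 without a filter (0.0663). The DESeq2 test ended the calls of BARD1, BRCA2, FANCB, FANCG, FANCI, RBBP8 and RMI2 (adjusted p 0.0549 to 0.109). In every one of these omissions the sign of the difference stayed negative.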

How the results depend on the processing

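Direction held for every called gene under every alternative run. The count of members lower at 24 h was 24 with DESeq2's size factors, without a filter and with recovered reads, 22 with only the 4 libraries compared, 19 with DESeq2, and 18 to 25 with a library left out, where 13.6% to 19.1% of all tested genes were lower. DESeq2 lost RAD51B (adjusted p 0.0672), XRCC2 (0.076), RAD54L (0.144), FANCA (0.0714) and NBN (0.0629). Fitting only the 4 libraries lost RAD51B (0.0511) and RAD54L (0.0735). Without a filter RAD54L was lost (0.0731) and XRCC3 gained (5e-04). The count at 12 h was 6 with only the 4 libraries compared, where 7.85% of all tested genes were lower. Leaving a library out ended or added 12 h calls, as given above. The count for the difference between times was 11 with DESeq2's size factors, 12 without a filter, 11 with recovered reads, 6 with DESeq2 and 2 to 14 with a library left out, and no fit of 4 libraries can give it. Between vehicle times the count was 1 without a filter, XRCC3 (0.000126), and 0 to 3 with a library left out. Over all settings the replication and division list had 20 or 21 of 22 genes lower at 24 h, and the other recombination list had 18 to 24. The causes were not tested.

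The letters A and B were checked as pairs: deviations from group means correlated at -0.162 between the 24 h groups, -0.0401 between the 12 h groups and 0.161 between the vehicle groups. The other pairs of groups ran from -0.0767 to 0.0327, so not every pair was over 0.1 and the libraries were taken to share only a letter. With the replicate block the counts were 24 at 24 h, 2 at 12 h, 12 for the difference, where RMI2 was lost (0.0618), and 0 between vehicle times. Over all tested genes the share lower with that block was 20.5% at 24 h, 2.64% at 12 h and 7.19% for the difference. Depth limits the genes with few reads: among tested members BLM, SLX4, UBE2T, FANCD2 and PALB2 had at most 52 reads in any library.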

Other observations

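Genes of the damage checkpoint, which holds the cell cycle while breaks are repaired, also fell at 24 h. Of 17 genes 12 were lower and none higher, where 21.1% of all tested genes were lower and 19.6% higher. The median log2 change was -0.54. CLSPN, the adaptor that brings CHEK1 to its activating kinase, had 112 and 116 CPM in EMD37 libraries at 24 h, against 231 and 213 CPM in vehicle. ATRIP, the partner of ATR, had 11.1 and 10.9 CPM with EMD37 and 26.0 and 24.8 CPM in vehicle. The log2 change was -0.96 ± 0.08 (SE) for CLSPN, -1.21 ± 0.14 for ATRIP, -0.92 ± 0.09 for ETAA1, an activator of ATR, -0.64 ± 0.08 for CHEK1 and -0.59 ± 0.09 for ATR. ATM, the kinase that responds to breaks, had 59.3 and 49.8 CPM with EMD37 and 61.1 and 57.6 CPM in vehicle. Its log2 change of -0.12 ± 0.11 was not called (adjusted p 0.387 by edgeR's quasi-likelihood test).

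In base excision and single-strand break repair 10 of 19 genes were lower at 24 h and 1 higher, with a median of -0.39. Over all tested genes 21.1% were lower and 19.6% higher. With a library left out 8 to 10 were lower and 0 to 2 higher. APEX2, a DNA repair nuclease, had 40.4 and 40.0 CPM with EMD37 and 64.1 and 68.9 CPM in vehicle (log2 change -0.73 ± 0.10). PARP2, which marks strand breaks, had 27.4 and 29.8 CPM with EMD37 and 64.5 and 43.8 CPM in vehicle (log2 change -0.93 ± 0.15). In mismatch repair 1 of 6 was lower (16.7%, below the share of all tested genes) and none higher: MSH3 at -0.40 ± 0.15. That call was narrow (adjusted p 0.0415 by edgeR's quasi-likelihood test), and it was lost under 13 of 14 alternatives (0.051 to 0.242), which left 0 genes of the list called. It held without vehicle 24 h library A (0.0259).

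Across the 36 tested members the 12 h and 24 h log2 changes, which come from different libraries, had a Pearson r of 0.42 and a Spearman rho of 0.44. Over all tested genes they were 0.50 and 0.44. Genes are not independent replicates, and both are descriptions.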
